A study of Mus musculus with 12 samples.

Results

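The genes described here are 87 chromatin modifiers and remodellers measured in whole brains of mice at postnatal day 10. They were the genes, among 6427 named genes with a signal in all 12 samples, whose symbols carry the name stems of SWI/SNF, CHD, BAZ and ARID proteins, histone deacetylases and sirtuins, acetyltransferases, lysine methyltransferases, demethylases and JmjC proteins, chromobox and bromodomain readers, ING proteins, or DNA methyltransferases and methyl-CpG binding proteins. Choice by symbol used no measured difference, and 0 members lay on the Y chromosome. The members fell into 11 roles: 13 SWI/SNF and related SNF2-family remodellers, 10 CHD remodellers, 2 BAZ proteins, 10 deacetylases and sirtuins, 7 acetyltransferases, 15 lysine methyltransferases, 12 demethylases and JmjC proteins, 7 chromo- and bromodomain readers, 1 ING protein, 7 proteins of DNA methylation and 3 other ARID proteins.

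The study asked what total or partial ablation of Gja9 alters in brain RNA. Gja9 is an older symbol of Gjd2, the gene of connexin36, from which neurons build most of their gap junctions. The samples were 4 of Gja9 (-/-) mice (Gja9_null below), 4 of Gja9 (+/-) mice (Gja9_het) and 4 of wildtype mice, all of the strain C57Bl/6j, and the labels give no sex and no account of how the Gja9 allele was made. Each of 6 spotted mouse cDNA arrays carried 2 colours of 1 genotype, so the 4 samples of a genotype sat on 2 arrays.

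Chromatin modifiers write, read and remove chemical marks on histones and DNA. Acetyltransferases add acetyl groups that loosen the hold of histones on DNA, deacetylases take them off, and lysine methyltransferases and demethylases set marks that either favour or silence transcription. Remodellers of the SNF2 superfamily, to which the SWI/SNF, CHD and ISWI enzymes belong, use ATP to slide or evict nucleosomes. In the postnatal brain these enzymes are known for the switch from dividing precursors to mature neurons and glia, and mutations of many of them cause neurodevelopmental disorders in people.

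All values are log2 signals relative to the mean signal of the sample, so that 0 is the mean spot, and a difference of -1 is a 2-fold lower signal. The spots were cDNA clones, of which 156 belonged to the members: 44 members had 1 clone and 43 had at least 2, whose values were averaged. Levels of different genes come from different clones and are not set against each other. Differences were tested with limma over all 9514 features with the array as a block, and a Benjamini-Hochberg adjusted p under 0.05 was called. In each genotype the samples 1 and 2 shared an array and so did samples 3 and 4, as read from the values, and the labels do not tie samples to animals, so the p-values measure the spread between these samples and arrays. Each genotype had only 2 arrays, while the degrees of freedom of the fit count both colours of an array, so its p-values can be too small. With 1 mean per array, 2 of the 9514 features were called in Gja9_null minus wildtype, against 31 as reported. In whole brain, fewer cells of a type and less RNA per cell cannot be told apart.

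Of the 87 members, 1 fell in Gja9_null brains, where 0.326% of all features were called in either direction with 0.210% lower and 0.116% higher. That gene was Smarcad1, an SNF2-family remodeller known for keeping silent chromatin through DNA replication and for the resection of broken DNA ends. The other 86 members did not pass the test against wildtype. None of the 87 passed it in Gja9_het brains, where 0.00% of all features were called.

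Promoters are shown of the member that was called, of Sirt5, which had the next largest lower difference, and of Sirt3, which had the largest higher one. Each is the RefSeq window of 300 bases around an annotated start on the mouse build GRCm38.p6, read on the strand of the gene. Capitals mark each CG dinucleotide, the site that Dnmt1 and Dnmt3a methylate and that Mbd1 and Mbd2 bind when methylated. The Smarcad1 window lies at chr6:65042956-65043255 on the plus strand and holds 25 CG, the richer of its 2 windows. The Sirt5 window lies at chr13:43365285-43365584 on the plus strand and holds 15, and the Sirt3 window lies at chr7:140881820-140882119 on the minus strand and holds 24, the richer of 2.
Smarcad1: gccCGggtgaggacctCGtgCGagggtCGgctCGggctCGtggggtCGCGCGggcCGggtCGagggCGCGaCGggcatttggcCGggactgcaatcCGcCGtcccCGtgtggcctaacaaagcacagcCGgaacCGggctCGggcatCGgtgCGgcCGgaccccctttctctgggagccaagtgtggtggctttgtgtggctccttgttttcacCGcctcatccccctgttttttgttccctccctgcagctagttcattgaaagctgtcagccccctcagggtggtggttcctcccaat
Sirt5: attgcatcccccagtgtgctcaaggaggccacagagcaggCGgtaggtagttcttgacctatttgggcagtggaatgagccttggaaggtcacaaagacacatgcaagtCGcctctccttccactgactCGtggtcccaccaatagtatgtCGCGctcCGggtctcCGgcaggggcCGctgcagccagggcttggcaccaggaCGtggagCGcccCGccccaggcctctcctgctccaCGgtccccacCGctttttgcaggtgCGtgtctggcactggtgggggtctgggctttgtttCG
Sirt3: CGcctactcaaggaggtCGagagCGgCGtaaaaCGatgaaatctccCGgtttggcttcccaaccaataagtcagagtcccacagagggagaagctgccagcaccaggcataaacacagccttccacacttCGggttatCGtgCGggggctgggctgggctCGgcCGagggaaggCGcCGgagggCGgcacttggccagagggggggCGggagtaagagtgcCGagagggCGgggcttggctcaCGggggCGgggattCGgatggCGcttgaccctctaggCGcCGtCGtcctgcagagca

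CG-rich promoters were common among the chromatin genes. For 70 of the 87 members the table gave 99 windows, with a median of 26 CG in 300 bases and 65.7% G or C. The 6797 windows of 5178 measured genes had a median of 21 CG, and the 32851 windows of all genes had a median of 7. At least 1 CG in 20 bases, or 15 in a window, was found in 79.8% of the members' windows, in 69.6% of those of the measured genes and in 34.6% of all windows. CG reads the same on both strands. The counts describe the reference sequence, and methylation was not measured.

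Smarcad1 had log2 signals of -5.10, -5.11, -3.64 and -3.79 in the 4 Gja9_null samples, against -2.16, -2.14, -2.26 and -2.30 in Gja9_het and -2.19, -2.08, -1.84 and -1.60 in wildtype. All 4 Gja9_null samples lay below every sample of both other genotypes, and within Gja9_null the 2 samples of the first array lay below those of the second. The means were -4.41 ± 0.80 in Gja9_null and -1.93 ± 0.26 in wildtype (SD, n = 4 each). The difference was -2.48 ± 0.41 (SE), a 5.59-fold lower signal, with a limma adjusted p of 0.0206. With 1 mean per array the limma adjusted p was 0.0916. Only 1 clone read Smarcad1, and it sat in the 47th of 48 stretches of probe numbers, where signals of other probes were low in Gja9_null as well. With each sample centred on the probes of neighbouring number, the difference was -0.98 with a limma adjusted p of 0.104, and without the first Gja9_null array it was -1.79 with an adjusted p of 0.0574.

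**Figure D1:**
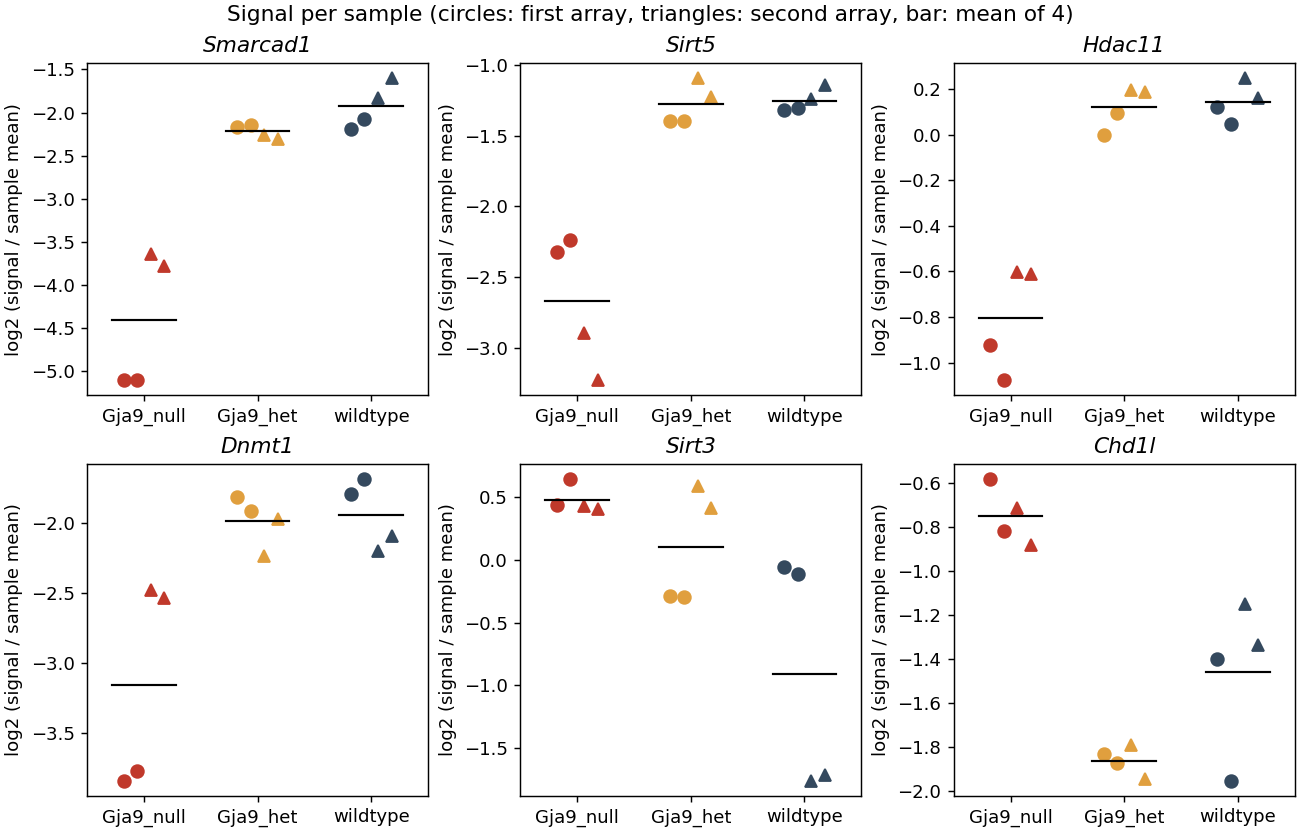
Log2 signal relative to the sample mean (y axis) of 6 chromatin genes in each sample of Gja9_null, Gja9_het and wildtype brains, with circles for the first array, triangles for the second and a bar for the mean of 4 samples. The Gja9_null samples of Smarcad1, Sirt5, Hdac11 and Dnmt1 lie below all wildtype samples, those of Sirt3 and Chd1l lie above them, and the samples of an array lie close together.

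The remaining 12 SWI/SNF and SNF2-family genes did not pass the test. Their differences between Gja9_null and wildtype ran between -0.54 and 0.44 with a median of -0.12, beside -0.10 over all features. With Smarcad1 the role's median was -0.14, and 0.02 with quantile normalization. Brd7, the bromodomain subunit of the PBAF form of SWI/SNF, had the next smallest p. Its signals were -1.15, -0.80, -1.37 and -1.21 in Gja9_null, against -0.21, -0.18, -1.08 and -0.92 in wildtype. These ranges overlapped, since the second wildtype array was low, and the difference was -0.54 ± 0.36 (limma adjusted p = 0.613).

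Among the deacetylases, the mitochondrial sirtuins Sirt5 and Sirt3 differed most, in opposite directions. Sirt5 removes succinyl and malonyl groups from metabolic enzymes, and Sirt3 is the main deacetylase of the mitochondrial matrix, so both act largely outside chromatin. Sirt5 read -2.32, -2.23, -2.90 and -3.23 in Gja9_null, against -1.32, -1.31, -1.24 and -1.14 in wildtype. The 2 groups did not overlap and differed by -1.42 ± 0.37, with a limma adjusted p of 0.160. Local centring left a difference of -1.13 for Sirt5, whose single clone sat in the 42nd stretch. It did not overlap with the 4 Gja9_het samples either, which lay between -1.40 and -1.09.

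Sirt3 read 0.44, 0.65, 0.43 and 0.41 in Gja9_null, against -0.06, -0.11, -1.76 and -1.72 in wildtype. The groups did not overlap, yet the 2 wildtype arrays, at means of -0.08 and -1.74, lay further apart than the first of them lay from Gja9_null. The difference was 1.39 ± 0.46 (limma adjusted p = 0.260), and 1.18 after local centring.

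Hdac11, the one class IV deacetylase, averaged -0.80 ± 0.24 in Gja9_null and 0.15 ± 0.08 in wildtype (SD, n = 4 each), a difference of -0.95 ± 0.28 with a limma adjusted p of 0.206. Its 2 clones differed from each other. The clone in the 8th stretch read 1.25, 1.26, 1.22 and 1.51 in Gja9_null and 1.43, 1.40, 1.43 and 1.31 in wildtype, a difference of -0.09. The clone in the 47th stretch read -3.09, -3.42, -2.42 and -2.73 in Gja9_null and -1.18, -1.31, -0.94 and -0.99 in wildtype, a difference of -1.81. After local centring the mean of both clones differed by -0.15. Over the 10 deacetylases and sirtuins the median difference was -0.12, or 0.03 with local centring, and 6 of 10 were negative, beside 58.9% of all features.

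The acetyltransferases had the lowest median of any role with more than 1 member, -0.85 over 7 genes, and 6 of the 7 were negative, beside 58.9% of all features. None of the 7 passed the test, and the differences ran between -1.16 and 0.36. The median was -0.77 with median centring, -0.49 with cyclic loess, -0.39 with quantile normalization, -0.31 with local centring and -0.27 without the first Gja9_null array, with 6 of 7 negative each time. Ep300, the acetyltransferase p300 that marks active enhancers, read -2.68, -2.62, -1.26 and -1.03 in Gja9_null and -0.71, -0.54, -1.11 and -1.16 in wildtype. The first Gja9_null array was low and the second overlapped with wildtype, and the difference was -1.02 ± 0.42 (limma adjusted p = 0.377). Its 2 clones sat in the 36th and 44th stretches, where all probes had medians of -0.82 and -0.68. After local centring the difference of Ep300 was -0.31.

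Kat2b, the acetyltransferase PCAF, was even over the arrays of Gja9_null. It read -3.16, -2.92, -3.05 and -2.97 there, against -1.98, -1.90, -2.62 and -2.20 in wildtype, with no overlap. The difference was -0.85 ± 0.37 with a limma adjusted p of 0.400, and -0.35 after local centring, its clone lying in the 46th stretch. Kat6a, a MYST-family acetyltransferase that is named here for its spread after its values were seen, read -1.20, -1.13, 0.50 and 0.45 in Gja9_null and 0.73, 0.79, 0.31 and 0.45 in wildtype. Only its first Gja9_null array stood apart, and this gap of 1.64 between arrays was the widest of any member in Gja9_null. The Kat6a clone sat in the 40th stretch, and its difference from wildtype was -0.07 after local centring.

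Among the 10 CHD remodellers, 5 differences were positive and 5 negative, with a median of -0.05, or 0.20 with cyclic loess. Chd5, a neuronal CHD enzyme of NuRD-type complexes, read -2.74, -2.59, -1.59 and -1.61 in Gja9_null, against -0.82, -0.73, -1.56 and -1.30 in wildtype. The groups were just apart, and the difference of -1.03 ± 0.38 (limma adjusted p = 0.327) was -0.12 after local centring. Chd1l, a remodeller recruited by poly(ADP-ribose) at DNA damage, was the CHD-named gene with the largest positive difference. Its signals were -0.58, -0.82, -0.71 and -0.88 in Gja9_null, against -1.40, -1.95, -1.15 and -1.33 in wildtype, a difference of 0.71 ± 0.36 with a limma adjusted p of 0.477. The BAZ proteins, partners of the ISWI remodellers, split: Baz2a of the nucleolar remodelling complex differed by 0.69 ± 0.35 and Baz1b, the Williams syndrome transcription factor, by -0.50 ± 0.43.

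The 15 lysine methyltransferase genes had a median of -0.09 with 11 negative, beside 58.9% negative over all features. This lean depended on scaling: the median was 0.08 with quantile normalization, 0.05 with cyclic loess and 0.00 with local centring. Setd1b, the catalytic subunit of a COMPASS complex, differed by -1.03 ± 0.43 and Setd7, which methylates histone and other proteins, by -0.80 ± 0.35, with limma adjusted p-values of 0.380 and 0.404. After local centring Setd1b differed by -0.33 and Setd7 by 0.01. The genes of the Polycomb enzyme, Ezh2 and Suz12, named after their values were seen, differed by -0.32 and 0.68, and both groups of samples overlapped.

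The 12 demethylases and JmjC proteins had a median of -0.37, with 8 negative (beside 58.9% of all features) and none past the test. That median was -0.17 with quantile normalization, -0.19 with cyclic loess and -0.17 with local centring. Kdm1a, the flavin-dependent demethylase LSD1, averaged -2.78 ± 0.52 in Gja9_null and -2.10 ± 0.53 in wildtype (SD, n = 4 each), a difference of -0.68 ± 0.44. Jmjd1c, a JmjC protein of the Kdm3 type, differed by -0.49 ± 0.33. After local centring Kdm1a differed by -0.26 and Jmjd1c by -0.17. The X-linked demethylase gene Kdm5c, named after its values were seen, read -3.99, -3.42, -3.46 and -3.19 in Gja9_null, -1.42, -1.12, -2.49 and -2.15 in Gja9_het, and -3.90, -3.85, -1.30 and -1.22 in wildtype. The gap of 2.62 between its 2 wildtype arrays was the widest of any member in any genotype. The 2 other X-linked members were closer, with wildtype arrays at -1.81 and -1.42 for Kdm6a and at -1.12 and -0.59 for Smarca1.

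Of the 7 proteins of DNA methylation, Dnmt1 was lowest. Dnmt1 copies methylation to the new strand after replication. It read -3.84, -3.78, -2.48 and -2.53 in Gja9_null, against -1.79, -1.68, -2.20 and -2.09 in wildtype, without overlap and with the first Gja9_null array far below the second. The difference was -1.22 ± 0.40 (limma adjusted p = 0.260), and -0.42 after local centring. Dnmt3a, which places new methylation, was the most even: its mean was -0.09 ± 0.18 in Gja9_null and -0.13 ± 0.14 in wildtype (SD, n = 4 each). This mean joined 4 clones that differed by -0.62, 0.85, 0.74 and -0.81.

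The members with Mbd symbols pointed both ways. Mbd2, a subunit of NuRD, read -1.57, -1.40, -1.40 and -1.34 in Gja9_null, against -2.39, -2.32, -1.78 and -1.99 in wildtype. The groups did not overlap, and the difference was 0.69 ± 0.32 (limma adjusted p = 0.428). It came from 1 of the 2 clones, which differed by 1.47 and -0.08. Mbd6, an MBD-domain partner of a Polycomb-opposing deubiquitinase, differed by 0.73 ± 0.36 and Mbd1, a transcriptional repressor, by -0.60 ± 0.39.

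The readers and the small roles held no called gene. The BET proteins Brd2 and Brd3, which bind acetylated histones, differed by 0.50 ± 0.34 and -0.63 ± 0.37. After local centring Brd2 differed by 0.64 and Brd3 by -0.05. Ing4, a reader of methylated histone tails in an acetyltransferase complex, differed by 0.38 ± 0.38, and by 0.00 without the first Gja9_null array. Of the 3 other ARID proteins all were negative, beside 58.9% of all features. Arid3b differed by -0.70 ± 0.46 and Arid4a, a partner of the Sin3 corepressor, by -0.48 ± 0.39. After local centring Arid3b differed by -0.33 and Arid4a by -0.30.

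**Figure D2:**
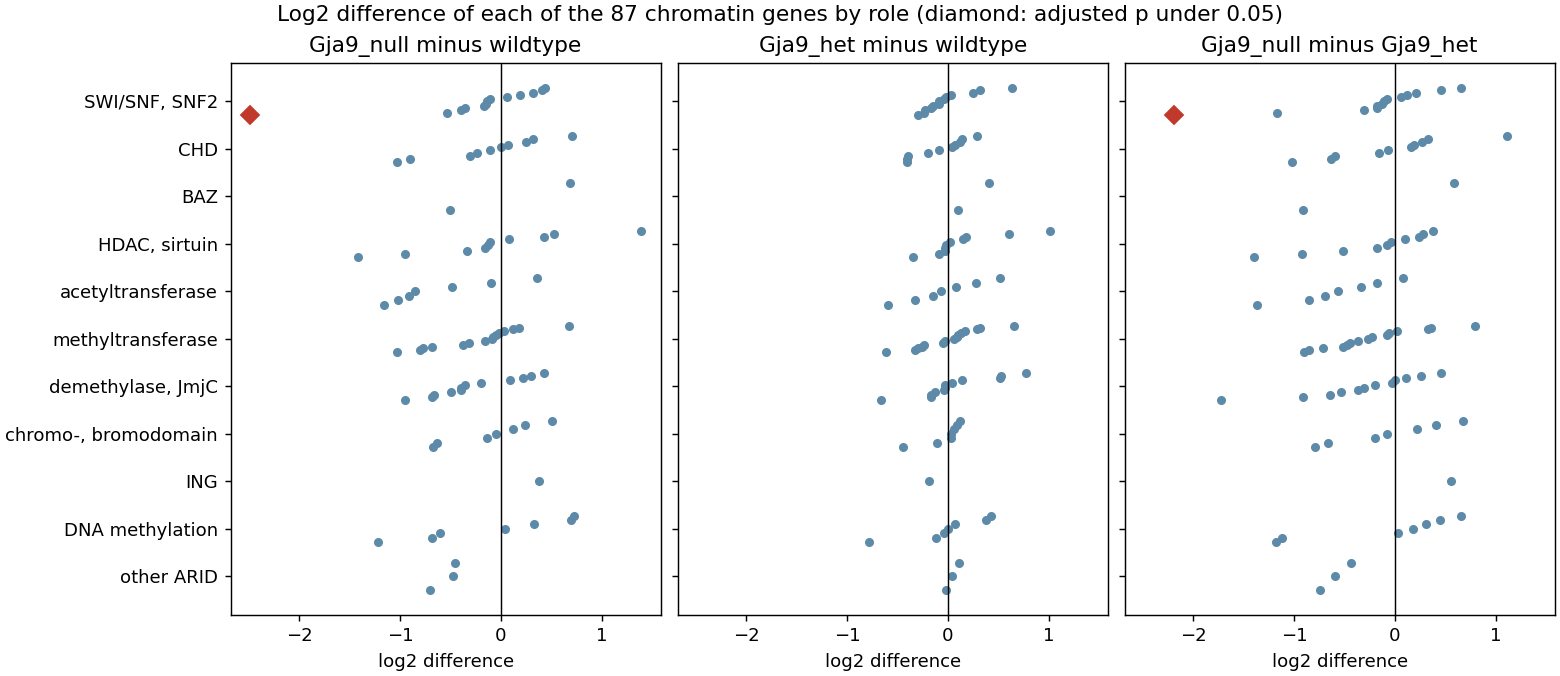
Log2 difference (x axis) of each of the 87 chromatin genes by role (rows) in the 3 comparisons, with a red diamond where the adjusted p was under 0.05. Smarcad1 is the one diamond, at -2.48 for Gja9_null minus wildtype and -2.19 for Gja9_null minus Gja9_het, and the points of Gja9_het minus wildtype lie between -0.79 and 1.02.

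Over all 87 members the median difference between Gja9_null and wildtype was -0.14, beside -0.10 over all 9514 features. There were 55 negative and 32 positive members, or 63.2% negative beside 58.9% of all features. A difference under 0.5 in size was found in 56 members, beside 6671 of the 9514 features. At an unadjusted p under 0.05 there were 10 lower and 2 higher members, or 13.8% of them, beside 11.6% of all features (9.22% lower and 2.41% higher). With local centring that split was 2 lower and 7 higher, or 10.3% of members beside 15.2% of all features. The groups did not overlap for 15 lower and 4 higher members, 17.2% and 4.60% of the 87, beside 15.6% and 7.52% of all features. Differences over 1 in size were found in 8 members, 9.20% of them, beside 7.20% of all features.

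Partial loss of Gja9 was read from Gja9_het minus wildtype. The 87 members split evenly here, 43 positive and 44 negative, or 50.6% negative beside 45.6% of all features. Their median was -0.02, beside 0.03 over all features. The differences ran between -0.79 and 1.02, and 75 were under 0.5 in size, beside 8326 of the 9514 features. At an unadjusted p under 0.05 there was 1 higher member, Sirt3, or 1.15%, beside 2.19% of all features (1.67% higher and 0.515% lower). Its 4 Gja9_het samples read -0.29, -0.29, 0.59 and 0.41, and the difference of 1.02 ± 0.46 had a limma adjusted p of 1. The first Gja9_het array lay below the first wildtype array, so the groups overlapped.

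The remaining members of small p in Gja9_het had a limma adjusted p of 1 as well. Among deacetylases, Hdac10, a polyamine deacetylase, read -0.52, -0.72, -0.52 and -0.66 in Gja9_het, against -0.89, -1.11, -1.32 and -1.54 in wildtype, a difference of 0.61 ± 0.29 without overlap. Mbd1 read -3.07, -3.10, -2.73 and -2.52 in Gja9_het, against -2.46, -2.27, -1.81 and -1.74 in wildtype, also without overlap. Its difference was -0.79 ± 0.39. In the fit with the replicate number as a block, which takes the 2 colours of an array as separate samples, Mbd1 was the 1 member called, with a limma adjusted p of 0.0483, or 1.15% of the members beside 1.42% of all features called in that fit.

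Other differences of Gja9_het from wildtype were 0.63 ± 0.36 for Brd7, 0.53 ± 0.31 for the demethylase Kdm5b, 0.52 ± 0.37 for Kat2b and 0.41 ± 0.43 for Baz1b. On the negative side, Kdm4a, another demethylase, differed by -0.67 ± 0.45. Its 2 Gja9_het arrays had means of -1.27 and -2.51, the widest gap of any member in that genotype. Setd5, a SET-domain protein, differed by -0.62 ± 0.44, the heterochromatin protein Cbx3 by -0.44 ± 0.31 and Chd1l by -0.40 ± 0.36. Ing4 and Arid4a differed by -0.18 and 0.11. The groups did not overlap for 5 higher members (Baz1b, Hdac10, Kat2b, Kdm5b and Smarcd2) and 3 lower ones (Kmt2c, Mbd1 and Setd5), 5.75% and 3.45% of the 87, beside 8.67% and 6.09% of all features.

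Complete against partial loss was read from Gja9_null minus Gja9_het, which shares its samples with the 2 other comparisons. Smarcad1 was again the 1 member called, lower, where 0.273% of all features were called, 0.263% lower and 0.0105% higher. Its difference was -2.19 ± 0.41 with a limma adjusted p of 0.0436, and -0.53 after local centring. The call was lost on leaving out any 1 of 10 samples, namely wildtype 1, 2 or 3, Gja9_null 1, 2 or 4, or any Gja9_het sample, and it held without wildtype 4 or Gja9_null 3, the adjusted p ranging between 0.0398 and 0.0741.

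Among the other members, Sirt5 differed by -1.39 ± 0.37 (limma adjusted p = 0.121) and Hdac11 by -0.92 ± 0.28 (0.159). Kat2b read between -3.16 and -2.92 in Gja9_null and -1.79, -1.74, -1.51 and -1.60 in Gja9_het. These groups lay clear of each other, and the difference was -1.36 ± 0.37 (limma adjusted p = 0.124). Brd7 read 0.24, 0.26, -0.16 and -0.19 in Gja9_het, above all 4 Gja9_null samples, with a difference of -1.17 ± 0.36 (0.163). In the other direction, Chd1l read -1.83, -1.87, -1.79 and -1.94 in Gja9_het, below all 4 Gja9_null samples, a difference of 1.11 ± 0.36 (limma adjusted p = 0.185).

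Smaller positive differences of Gja9_null from Gja9_het were 0.80 ± 0.44 for Setd5, 0.68 ± 0.31 for Cbx3, 0.65 ± 0.36 for Mbd6 and 0.65 ± 0.29 for Smarcc2, a core scaffold subunit of SWI/SNF. At an unadjusted p under 0.05 there were 10 lower and 3 higher members, 14.9% of them, beside 15.0% of all features (11.3% lower and 3.64% higher). The median was -0.15, beside -0.17 over all features. The groups did not overlap for 20 lower and 9 higher members, 23.0% and 10.3% of the 87, beside 22.5% and 10.2% of all features.

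The spread between the 2 arrays of a genotype set the error of these values. Between the arrays the members differed by a median of 0.48 in Gja9_null, 0.25 in Gja9_het and 0.43 in wildtype, while the 2 colours of an array differed by a median of 0.18 in Gja9_null, 0.11 in Gja9_het and 0.13 in wildtype. A gap over 1 between arrays was found for 12 members in Gja9_null, 4 in Gja9_het and 4 in wildtype. Over all features the median gap between arrays was 0.43 in Gja9_null, 0.28 in Gja9_het and 0.36 in wildtype.

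Clones of 1 gene gave a second look at the same transcripts. Of the 43 members with at least 2 clones, 19 had clones that all differed between Gja9_null and wildtype in the same direction, 10 negative and 9 positive, and 24 had clones of both signs. The median span between the lowest and the highest clone was 0.75. The widest was 2.24, for the demethylase Kdm2b, whose clones differed by 0.92 and -1.31, and the narrowest was 0.02, for the methyltransferase Kmt2a. A wide span came with a late clone in some genes and not in others. Kmt2c had 0.42, 0.46 and 0.60 in the 7th, 15th and 23rd stretches and -1.35 in the 40th, and Arid1a had 0.13 and 0.20 in the 19th and 37th and -1.51 in the 40th, while the clones of Dnmt3a, all in stretch 28 or earlier, also had both signs. Genes whose clones stayed close were Chd9 (0.06 and 0.08), Chd8 (0.23 and 0.27), Setd5 (0.21 and 0.16) and Brd2 (0.56 and 0.45). In Gja9_het minus wildtype the median span was 0.40, and 17 of the 43 members had clones of 1 sign.

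**Figure D3:**
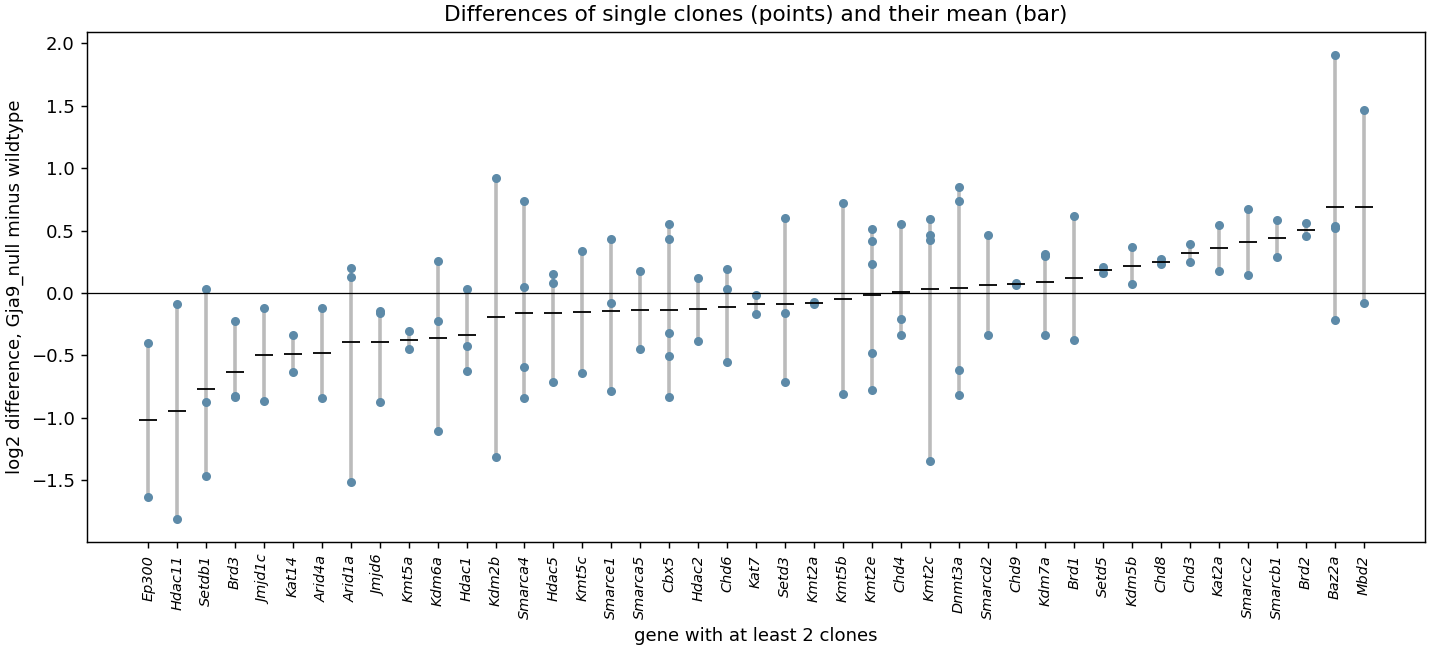
Log2 difference, Gja9_null minus wildtype (y axis), of each clone (points) and their mean (bar) for the 43 chromatin genes with at least 2 clones (x axis), ordered by the mean. The clones of 24 genes lie on both sides of 0, and the widest span is 2.24 for Kdm2b.

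Position on the probe list moved with the Gja9_null values. The probes were divided by number into 48 stretches. In the last 3, the 943 probes of any gene had a median difference between Gja9_null and wildtype of -0.69, beside -0.05 in stretches 1 to 45. Some earlier stretches were about as low, with medians of -0.79 in stretch 3, -0.81 in stretch 32, -0.82 in stretch 36 and -0.85 in stretch 40. The 10 member clones in the last 3 stretches, of Arid3b, Chd3, Chd5, Chd6, Hdac11, Kat2b, Kat6b, Kdm6a, Smarca5 and Smarcad1, had a median of -0.94, beside -0.08 for the other 146 clones. The 2 last-stretch clones of Chd3 and Smarca5 differed by 0.40 and 0.17 and went against this shift. In Gja9_het minus wildtype the last 3 stretches had medians of -0.13 for the members and -0.02 for all probes. Each of the 10 lower members at an unadjusted p under 0.05 had a clone in stretch 32 or later, as did 48 of all 87 members (55.2%) and Mbd2, 1 of the 2 higher ones. Stretch 32 holds the clone of Setd7, the earliest of these 10. The bound was thus taken from the same genes, and the counts do not test position. The part of probe position in the Smarcad1 result was not tested beyond the local centring given above.

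**Figure D4:**
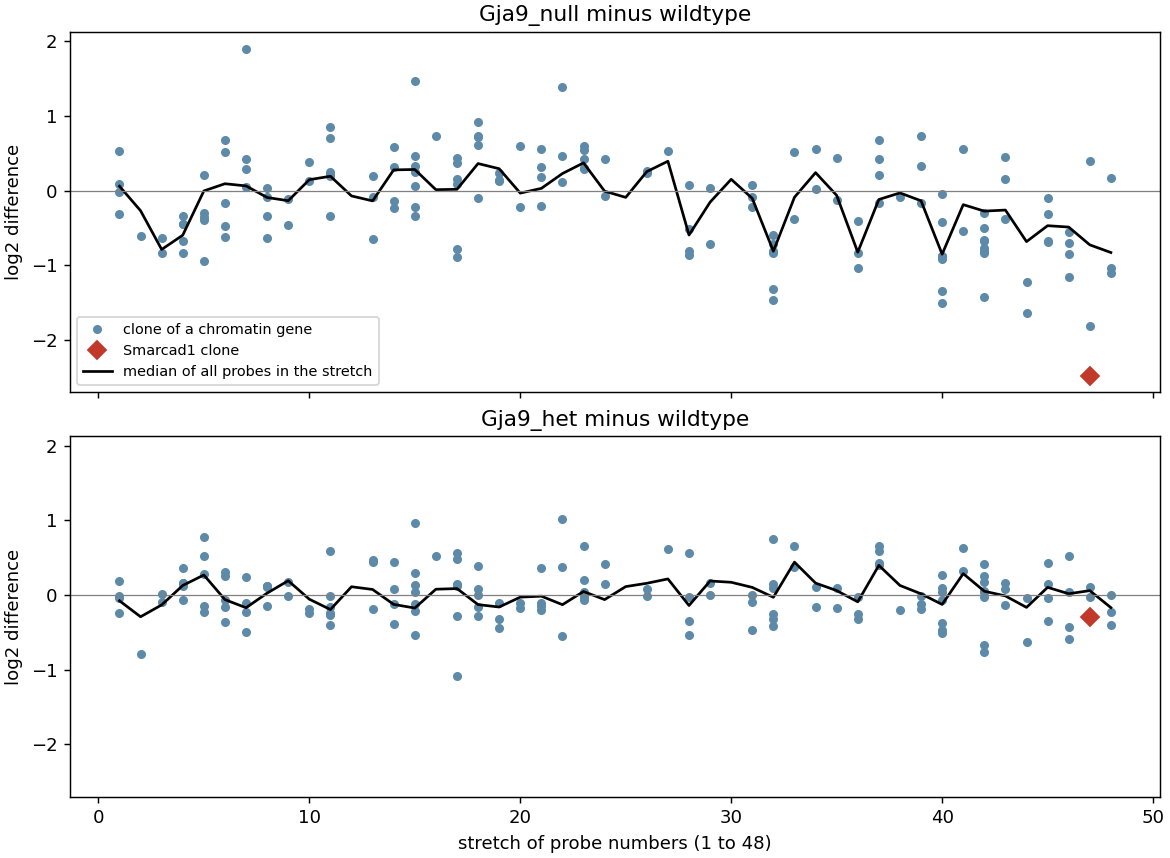
Log2 difference (y axis) of each member clone (points), of the Smarcad1 clone (red diamond) and the median of all probes (line) over 48 stretches of probe numbers (x axis), above for Gja9_null minus wildtype and below for Gja9_het minus wildtype. In the upper panel the line falls over the last stretches to -0.83 in the last one and dips about as low in 4 earlier ones, and in the lower panel it stays closer to 0.

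**Figure D5:**
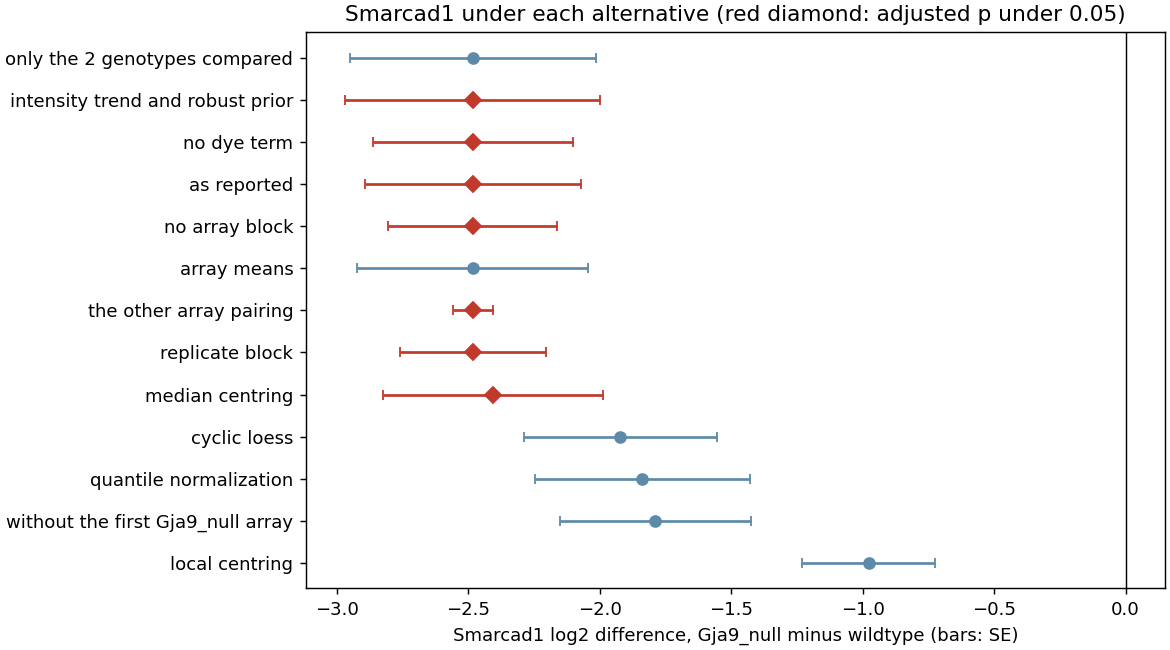
Log2 difference of Smarcad1, Gja9_null minus wildtype (x axis, bars are SE), as reported and under 12 alternative ways of processing, leaving out of single samples not among them (rows), with a red diamond where the adjusted p was under 0.05. The values shown are negative and run between -2.48 and -0.98, the value nearest 0 being that with local centring. At -2.48 stand the alternatives that change the error model, the dye term or the genotypes included, which cannot move the difference.

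The remaining chromatin genes, outside the symbol pattern, were read from lists of the same complexes. Of 205 listed subunits and partners, 116 were measured and 0 were called in any comparison. Against wildtype, Gja9_null had a median of -0.14 over them, with 10 lower and 1 higher at an unadjusted p under 0.05, or 9.48% beside 11.6% of all features. Gja9_het had a median of 0.01 over them, with 0 lower and 2 higher, or 1.72% beside 2.19%. Uhrf1, which recruits Dnmt1 to newly copied DNA, read -2.12, -2.62, -1.80 and -1.77 in Gja9_null, against -0.79, -0.74, -0.70 and -0.74 in wildtype. The groups lay well apart on both arrays, and the difference was -1.34 ± 0.42 (limma adjusted p = 0.227). Zmynd11, a reader of methylated histone that restrains elongation, was the 1 higher gene: it read 1.16, 1.47, 0.66 and 0.85 in Gja9_null, against -0.02, 0.25, -0.20 and 0.05 in wildtype, a difference of 1.01 ± 0.28 (limma adjusted p = 0.168). The histone chaperone Anp32b differed by -1.25 ± 0.37 and the Sin3 scaffold Sin3a by -1.12 ± 0.42.

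Summed levels of markers of brain cells are given by genotype. The measured neuronal markers (5 of 10: Syt1, Map2, Tubb3, Nefl and Nefm) summed to between 13.9 and 24.7 times the sample mean in Gja9_null, 20.2 to 24.3 in Gja9_het and 19.4 to 24.3 in wildtype. The oligodendrocyte markers Mbp and Cnp (2 of 6) summed to 6.30 to 13.7 in Gja9_null, 8.35 to 15.3 in Gja9_het and 12.9 to 17.2 in wildtype. The astrocyte markers Slc1a3 and Aldoc (2 of 7) summed to 6.24 to 10.9 in Gja9_null, 4.35 to 5.05 in Gja9_het and 5.74 to 6.43 in wildtype. Singly, these 2 went opposite ways in Gja9_null minus wildtype, with log2 differences of 0.90 and -0.24. Markers of proliferating cells (10 of 12 measured) summed to 4.19 to 4.53 in Gja9_null, 4.81 to 5.16 in Gja9_het and 3.91 to 4.29 in wildtype. Blood markers (3 of 4) summed to 12.3 to 15.6 in Gja9_null, 8.57 to 13.4 in Gja9_het and 8.28 to 15.4 in wildtype. Of these, 2 were higher and 1 lower in Gja9_null than in wildtype, with log2 differences between -1.45 and 0.39. The 3 liver genes summed to 1.78 to 2.28 in Gja9_null, 1.54 to 1.89 in Gja9_het and 1.26 to 1.94 in wildtype. The sums cover between 2 and 10 genes, so they are not read against the mean spot or against another list. No marker was called, and the part of cell makeup in the chromatin values was not tested.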

How the data were processed

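Total RNA of 12 mouse brain samples (Trizol, 60 ug per sample) carried Cy5 in odd and Cy3 in even replicate numbers, per the labels' dye field, which was followed for wildtype 3 and Gja9_null 1, where the labelling text names the other dye. The deposited values are log2 signals relative to the sample's mean signal, as a mean of 1 on the linear scale in every sample showed. For background correction, dye correction and filters, the sources used here give nothing. Sample medians lay between -0.98 and -0.81. The precision rests on the number of arrays.

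Of 28704 probes, 13443 had values and 10356 of these had 1 gene in the probe table. Symbols were updated from a mouse RefSeq table (10263 probes matched by gene number), and probes of a gene were averaged. Within a genotype, the differences between samples 1 and 3 and between 2 and 4 correlated at 0.919 to 0.940, so 1 and 2, and 3 and 4, were taken to share an array.

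One limma 3.58.1 model (R 4.3.3, lmFit and eBayes, two-sided) held all 12 samples, with terms for genotype and dye and a random block for the array (correlation 0.927). Adjustment was by Benjamini-Hochberg over 9514 features, and the fit was checked on simulated data. Python 3.11.15, pandas 2.3.3 and matplotlib 3.10.9 made the tables and figures. Deviations of same-numbered samples from their group means correlated at 0.11 to 0.23 between Gja9_het and wildtype, every pair over 0.1, and at -0.09 to 0.07 between Gja9_null and the others. The fit with the replicate number as a block is therefore given beside Gja9_het minus wildtype.

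Local centring subtracts from each sample its median deviation from the probe means over neighbouring probe numbers. Members were named by a rule: those called, the 5 higher and 5 lower of smallest p in each comparison, those of smallest p in each role, and any with several clones for their agreement. The members, roles, partner lists, markers and alternatives were chosen with earlier results of these data known. Data on other connexin knockouts, and the level of the targeted gene, were not analysed here.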

Additional observations from a re-analysis of the deposited data

Results flagged for a closer look

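Sirt3 in Gja9_null had 1 sample apart from the others: replicate 2 read 0.65, while the other 3 lay between 0.41 and 0.44, a gap of 0.86 of the group's range. Among independent samples, chance would set apart about 1 group in 20 in this way, but the samples of a genotype here shared arrays.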

How the results depend on the processing

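The 1 member called in Gja9_null minus wildtype, Smarcad1, remained called with median centring, without the dye term, with an intensity trend and robust prior, with clones tested singly and on leaving out each sample in turn (1 member each time, adjusted p between 0.0222 and 0.0450). Smarcad1 has only 1 clone, and leaving out a sample keeps the other colour of its array. Those fits therefore say little about the spread between arrays. The count of members called was 0 with array means, quantile normalization, cyclic loess, local centring, without the dimmest 25% of probes or the last 3 stretches (both of which leave Smarcad1 out), without the first Gja9_null array and with only the 2 genotypes compared. It was 14 without the array block, or 16.1% of the members beside 15.4% of all features. With the other array pairing it was 66, or 75.9% of the members beside 74.9% of all features. In Gja9_null minus Gja9_het, Smarcad1 was the 1 member called without the dye term, and Sirt5 the 1 without the first Gja9_null array, where Smarcad1 was at -1.50 with an adjusted p of 0.0872. The count was between 0 and 1 on leaving out a sample, and 0 with array means, any of the 4 other scalings (median centring, quantile, loess, local), the intensity trend, without the dimmest 25% or the last 3 stretches, with only 2 genotypes and with clones tested singly. It was 19 without the array block (21.8% of members and 22.3% of all features). With the other pairing it was 69 (79.3% of members and 79.3% of all features). In Gja9_het minus wildtype the count was 0 throughout, except 45 with the other pairing (51.7% of members, 60.4% of all features) and 1 with the replicate block. With the replicate block, under which each colour is its own sample, 18 members were called in Gja9_null minus wildtype (20.7%, beside 18.6% of all features) and 21 in Gja9_null minus Gja9_het (24.1%, beside 26.2%); numbers did not pair Gja9_null with other samples. Over all features, 31 were called in Gja9_null minus wildtype, against 2 with array means, 1464 without the array block and 56 with local centring.

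Of the single members' values under the alternatives, 1058 kept direction and side of the threshold, 82 gained a call and 24 lost one. Many alternatives change only the error model, the dye term or samples outside the comparison. These cannot move a difference or its direction, so the 1058 are not a measure of robustness. Of the gains, 43 came with the other array pairing, 20 with the replicate block and 18 without the array block. All 24 losses were of Smarcad1, the only member called as reported. A further 5 values reversed. These were Ing4 in Gja9_null minus wildtype (-0.0017 without the first Gja9_null array), Setd7 in the same comparison (0.0111 with local centring), Arid4a in Gja9_het minus wildtype (-0.0282 with local centring) and Hdac11 in Gja9_null minus Gja9_het (0.0663 without the dimmest 25% and without the last 3 stretches, which removes 1 of its 2 clones). Quantile normalization moved the median of all features from -0.10 to 0.02 in Gja9_null minus wildtype and from -0.17 to -0.01 in Gja9_null minus Gja9_het, and the members' median to -0.01 and 0.02. The causes were not tested. The values do not show how far a signal lay above background.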
